A study of Mus musculus with 4 samples.

Results

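The genes described here are 10 antagonists and feedback targets of the Wnt pathway, Sfrp1, Sfrp2, Sfrp5, Frzb, Dkk1, Dact1, Axin2, Lef1, Sp5 and Nkd1. They were chosen by name, with earlier results of these data known, and made up 10 of the 18193 genes that could be read. They were compared between 2 populations sorted from differentiating TT2 cells, a mouse embryonic stem cell line. The Etv2-Venus positive population was Flk-1+/Etv2+ and the Etv2-Venus negative population was Flk-1+/Etv2-, with 2 arrays of each, numbered 1 and 2. Both came from Etv2-Venus knock-in heterozygous cells, so one Etv2 allele carried the Venus fluorescent reporter in all samples, and both had been grown on OP9 feeder cells, mouse stroma used to drive stem cells towards mesoderm and blood. The labels give day 5 and the design text gives 4 to 5 days. Flk-1 is the VEGF receptor encoded by Kdr, and Etv2 is an ETS transcription factor that drives blood and endothelial fate. A single cell line was used, and nothing in the labels says whether arrays of a population stem from separate cultures, so the p-values cover the spread among these arrays alone, which may be technical.

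In the canonical Wnt pathway, a Wnt ligand bound by a Frizzled receptor and an Lrp5 or Lrp6 co-receptor stops the destruction of beta-catenin, which then enters the nucleus and acts with TCF and LEF factors on target genes. Several of those targets encode inhibitors of the pathway, such as Axin2, Nkd1 and Dkk1, so their transcripts are commonly read as a sign of pathway activity and also act against it. In the early embryo Wnt signalling is required in the primitive streak and in nascent and presomitic mesoderm, where many of these genes are expressed.

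Of the 10 genes, 9 were lower in the Etv2-Venus positive cells, and in each of these 9 both positive arrays lay below both negative arrays. Frzb, Dact1 and Sfrp1 were more than 2-fold lower, at -1.70, -1.51 and -1.32 log2 units, and Dkk1, Lef1, Sp5, Nkd1, Axin2 and Sfrp2 had differences between -0.90 and -0.35. Sfrp5, which gave a signal near the array median, differed by 0.11. The median difference of the 10 genes was -0.65, against 0.01 over all 18193 genes. The 10 genes were chosen with earlier results of these data known. This contrast and those below with all genes are thus descriptions only. Non-overlapping arrays in the lower direction were found for 17.0% of all genes, and for 17.8% of the 10179 brighter genes, with a mean of 6 log2 units or more, which include the 9 genes. A difference of at least 2-fold in that direction was found for 0.423% of all genes, against 3 of the 10. With the probe sets of each gene averaged, 2 of the 10 reached it, and Sfrp1 was then at -0.93. Neither these 10 genes nor any other passed the limma test at an adjusted p of 0.05, so the share called over all genes was 0%. At an unadjusted p under 0.05 in limma, 8 of the 10 genes were lower, against 4.64% of all genes. The exceptions were Axin2 and Sfrp5, and the count was 5 when array 2 of the positive cells was left out, with 1 positive array then assumed to vary like the negative ones.

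All values are the authors' log2 expression values from RMA, which are relative between arrays and compress differences near background. Differences are positive minus negative, with the standard error (SE) and the 95% interval of the limma fit, and n = 2 arrays per population throughout. In bulk RNA of sorted cells, fewer cells of a type and less RNA per cell cannot be told apart. Etv2 was read first as a check of the sort and measured 12.64 and 12.41 on the positive arrays, against 12.03 and 11.87 on the negative arrays. It was thus higher by 0.57 (SE 0.13, adjusted p = 0.185) in the positive cells, with a high signal in the negative cells as well. Kdr, on which both populations were selected, differed by 0.13 (SE 0.12), and Pdgfra, a receptor of early mesoderm, by -1.65 (SE 0.38).

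**Figure D1:**
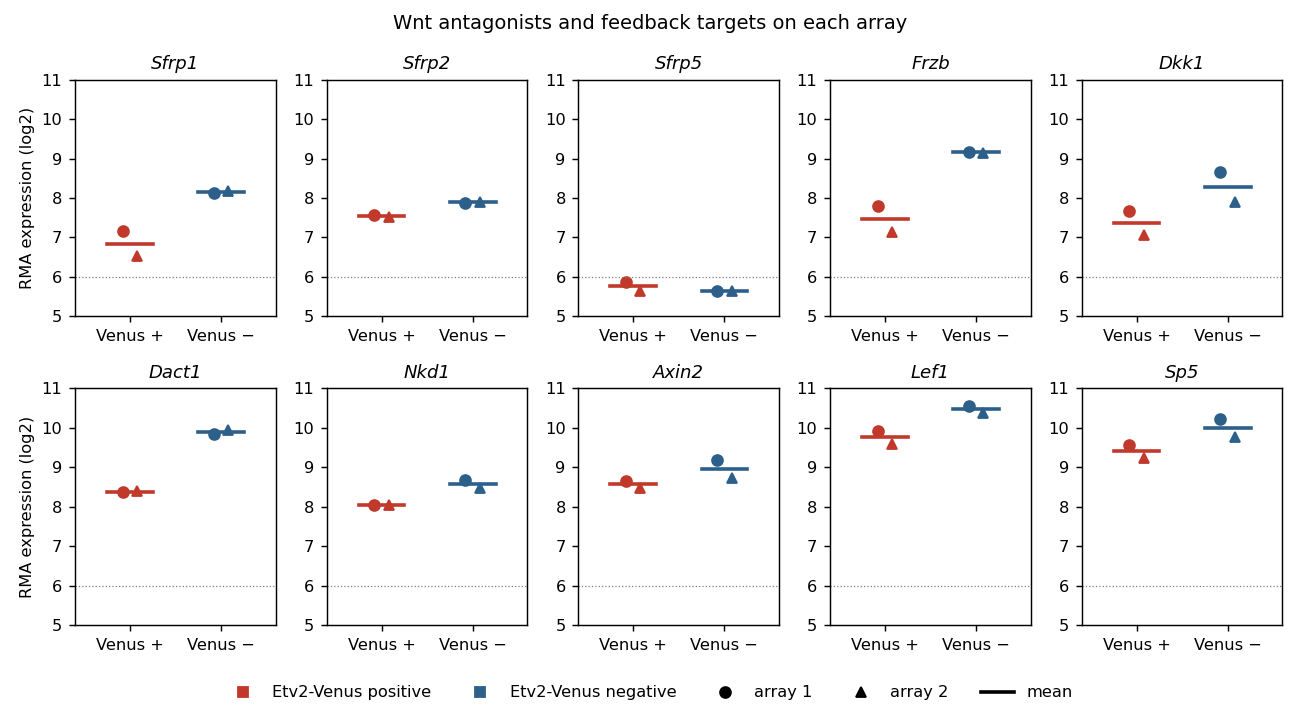
RMA expression in log2 units (vertical axis) of the 10 genes on each array, with Etv2-Venus positive arrays on the left and negative arrays on the right of each panel; circles are arrays numbered 1, triangles arrays numbered 2, bars the group means and the dotted line marks 6 log2 units. The positive arrays lie below the negative arrays in 9 panels, and in the Sfrp5 panel all 4 arrays lie under 6.

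The secreted frizzled-related proteins carry a cysteine-rich domain like that of the Frizzled receptors and bind Wnt ligands outside the cell. Frzb, also known as Sfrp3, had 7.79 and 7.14 log2 units on the positive arrays, against 9.17 and 9.15 on the negative arrays. The groups were separated by a gap of 1.36, larger than the 0.65 between the positive arrays. Frzb was 3.24-fold lower (difference -1.70, SE 0.23, interval -2.29 to -1.10, adjusted p = 0.0955). Its other probe set read 5.44 and 4.49 on the positive arrays, against 6.62 and 6.69 on the negative arrays, with nearly the same difference of -1.69. Sfrp1 had 7.16 and 6.52 on the positive arrays, against 8.13 and 8.19 on the negative arrays. It was 2.49-fold lower (difference -1.32, SE 0.22, interval -1.91 to -0.73, adjusted p = 0.129), with a spread of 0.63 between the positive arrays and of 0.06 between the negative arrays. All 4 other Sfrp1 probe sets also had positive arrays below negative arrays, but the size varied, from -1.45 and -1.28 to -0.44 and -0.17. The probe set at -0.44 belongs to a class with some probes shared between different transcripts.

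Sfrp2 showed a smaller difference with very close arrays. It had 7.56 and 7.51 on the positive arrays, against 7.88 and 7.90 on the negative arrays, and was 1.28-fold lower (difference -0.35, SE 0.09, interval -0.58 to -0.13, adjusted p = 0.226). Its interval did not overlap those of Frzb and Sfrp1, though the difference between the genes was not itself tested. Sfrp5 had 5.87 and 5.64 on the positive arrays, against 5.65 and 5.64 on the negative arrays. The groups overlapped, and the interval of the difference, -0.19 to 0.41 (adjusted p = 0.816), excluded a drop of the size seen for Frzb or Sfrp1 on this probe set. Its other probe set overlapped as well, at 5.47 and 5.32 on the positive arrays, against 5.47 and 5.25 on the negative arrays. With both probe sets under 6 log2 units, a difference in Sfrp5 may be compressed.

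Dkk1 encodes a secreted antagonist that binds the co-receptors Lrp5 and Lrp6. It had 7.68 and 7.07 log2 units on the positive arrays, against 8.65 and 7.91 on the negative arrays. The groups did not overlap, but the gap of 0.22 was smaller than the spread of 0.61 between the positive arrays and of 0.75 between the negative arrays. The fitted difference of -0.90 (SE 0.33, 1.87-fold lower, interval -1.76 to -0.04, adjusted p = 0.399) had the widest interval of the 10 genes, and was -0.53 without array 1 of the negative cells and -0.60 without array 2 of the positive cells. A dim second probe set overlapped between the groups, at 5.08 and 3.64 on the positive arrays, against 5.40 and 4.80 on the negative arrays.

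Dact1, Nkd1 and Axin2 act inside the cell. Dact1 binds Dishevelled, the adaptor below the Frizzled receptors, and had 8.37 and 8.40 log2 units on the positive arrays, against 9.84 and 9.96 on the negative arrays. The gap of 1.44 between the groups was many times the spread within them, 0.03 between the positive and 0.12 between the negative arrays. Dact1 was 2.85-fold lower (difference -1.51, SE 0.09, interval -1.76 to -1.26) and had the smallest adjusted p of the 10 genes, 0.0670, which it shared with the lowest of all genes, 66 in number. Dact1 passed the threshold in 2 of the alternative settings, when limma modelled variance by mean level robustly (adjusted p = 0.0390) and among the brighter genes (0.0429), and its adjusted p over all alternatives ran from 0.0390 to 0.399.

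Nkd1 also binds Dishevelled and is transcribed in response to Wnt. It had 8.05 and 8.04 on the positive arrays, against 8.67 and 8.48 on the negative arrays, and was 1.45-fold lower (difference -0.53, SE 0.11, interval -0.81 to -0.25, adjusted p = 0.154). The positive arrays differed by 0.01 and the groups were 0.43 apart. Its 3 dimmer probe sets did not share this pattern, with differences of -0.25 and -0.10 with overlapping arrays, and of 0.20 with positive arrays above negative arrays. The mean over the 4 probe sets gave -0.17. Axin2, a scaffold of the complex that destroys beta-catenin and a widely used Wnt target, had 8.65 and 8.48 on the positive arrays, against 9.19 and 8.72 on the negative arrays. The groups were only 0.06 apart, while the negative arrays differed by 0.48. The difference of -0.39 (SE 0.19, 1.31-fold lower, interval -0.88 to 0.10, adjusted p = 0.533) had an interval that includes 0, and ran from -0.63 without array 2 of the negative cells to -0.15 without array 1. A second Axin2 probe set, at the dim end of the scale, differed by -0.33.

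Lef1 and Sp5 are transcription factors. Lef1, a DNA-binding partner of beta-catenin that is itself induced by Wnt, had 9.93 and 9.60 log2 units on the positive arrays, against 10.57 and 10.37 on the negative arrays. It was 1.63-fold lower (difference -0.71, SE 0.15, interval -1.10 to -0.31, adjusted p = 0.173), and a second, dimmer probe set differed by -0.77, again with arrays apart. Sp5, a zinc finger factor and direct Wnt target of the primitive streak, had 9.57 and 9.25 on the positive arrays, against 10.23 and 9.78 on the negative arrays. The gap of 0.21 was smaller than the spread of 0.32 between the positive and 0.46 between the negative arrays, and Sp5 was 1.51-fold lower (difference -0.60, SE 0.20, interval -1.13 to -0.07, adjusted p = 0.366), or -0.37 when array 1 of the negative cells was left out.

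**Figure D2:**
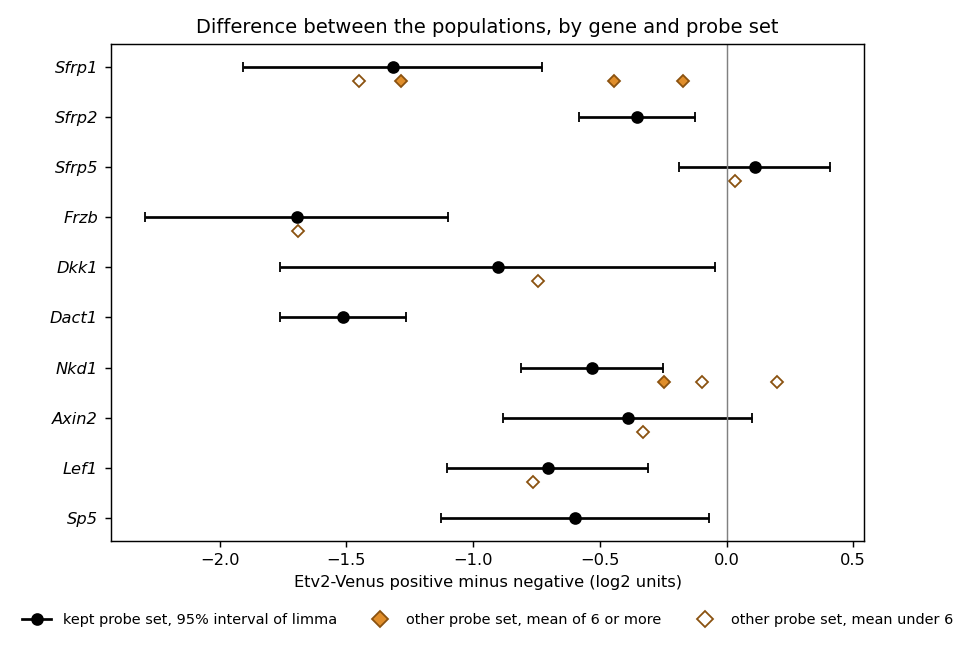
Difference in log2 units, Etv2-Venus positive minus negative (horizontal axis), for the kept probe set of each gene with its 95% interval (circles) and for the other probe sets (diamonds, filled at a mean of 6 or more). Of 22 probe sets 19 lie below 0, and the 3 above 0 are both Sfrp5 probe sets and a dim Nkd1 probe set.

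The 10 genes were read by 22 probe sets, and 3 genes, Sfrp2, Dact1 and Sp5, had only 1. Of the 12 probe sets not kept, 10 had a negative difference and 7 had positive arrays below negative arrays. The 4 brighter ones among them, 3 of Sfrp1 and 1 of Nkd1, were all negative. Those 7 were 4 of Sfrp1 and the second probe sets of Frzb, Axin2 and Lef1, so Sfrp1 weighs heavily in the count. Shares over all probe sets were not computed. Of the 18193 genes, 8545 had a negative difference, and 17.0% had positive arrays below negative arrays. The fitted differences of the 9 lower genes ran from -1.70 to -0.35, and differences between genes were not tested. Frzb, Dact1 and Sfrp1 had intervals that ended at -0.73 or lower, but that of Dkk1 overlapped all 3. The intervals of Lef1 and Sp5 overlapped those of Frzb and Sfrp1, and the intervals of Nkd1 and Axin2 overlapped that of Sfrp1. Against the whole array, Frzb ranked 8, Dact1 17 and Sfrp1 35 from the lowest difference, and for the 10 genes a median of 1.42% of all genes had a lower difference.

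**Figure D3:**
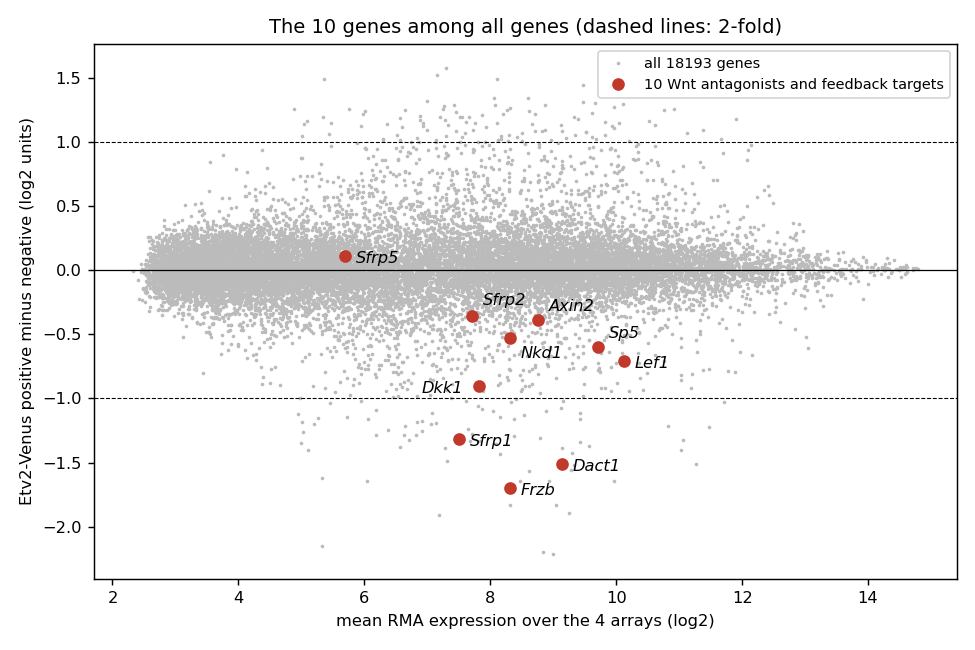
Difference in log2 units, Etv2-Venus positive minus negative (vertical axis), against the mean RMA expression over the 4 arrays in log2 units (horizontal axis) for all 18193 genes (grey) and the 10 Wnt genes (red, named). Frzb, Dact1 and Sfrp1 lie below the dashed line of a 2-fold decrease, which 0.423% of all genes reach.

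The promoters of 9 of the 10 genes were read from RefSeq on GRCm38.p6, each as 250 bases before and 50 after the start site. Sfrp1 had no window available and was not searched. There were 12 windows in all because Lef1 has several start sites, of which 2 have overlapping windows. Matches to a TCF/LEF motif were searched on both strands, spelled as CTTTG followed by a pair of bases that are each A or T. They were present in 3 of the 12 windows, those of Sp5, Dkk1 and 1 Lef1 start, or 3 of 9 genes, against 16.9% of 32851 promoter windows and 18.9% of 27025 genes. Sp5 and Dkk1 each held 2 matches, which 1.94% of all windows reach or exceed. The ETS motif CCGGAA was in 0 of the 12 windows, against 14.9% of all windows. The windows of Sp5 (chr2:70474673-70474972, plus strand) and Dkk1 (chr19:30549447-30549746, minus strand) are shown for their matches, in capitals. That of Frzb (chr2:80447347-80447646, minus strand), the gene with the largest difference, has none of these letters. Each runs 5′ to 3′ on the gene's strand.
Sp5: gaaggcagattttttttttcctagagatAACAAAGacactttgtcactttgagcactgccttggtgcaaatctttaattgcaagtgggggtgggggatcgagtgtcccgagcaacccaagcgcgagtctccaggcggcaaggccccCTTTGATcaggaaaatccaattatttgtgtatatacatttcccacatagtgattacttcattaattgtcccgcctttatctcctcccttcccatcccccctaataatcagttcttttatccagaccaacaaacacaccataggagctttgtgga
Dkk1: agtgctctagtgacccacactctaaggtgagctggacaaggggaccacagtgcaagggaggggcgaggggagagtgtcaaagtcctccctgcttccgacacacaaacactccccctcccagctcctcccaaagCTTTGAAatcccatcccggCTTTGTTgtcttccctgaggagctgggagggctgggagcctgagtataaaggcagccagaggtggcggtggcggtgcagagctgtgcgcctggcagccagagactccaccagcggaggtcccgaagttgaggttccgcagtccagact
Frzb: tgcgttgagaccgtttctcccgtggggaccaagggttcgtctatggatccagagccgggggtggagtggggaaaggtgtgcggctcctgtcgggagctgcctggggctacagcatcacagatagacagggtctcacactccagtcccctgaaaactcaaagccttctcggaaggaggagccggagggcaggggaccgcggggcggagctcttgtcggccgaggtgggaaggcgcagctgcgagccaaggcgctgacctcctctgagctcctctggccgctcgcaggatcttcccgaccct
In Sp5 the matches begin at -222 and -104 from the start site, and in Dkk1 at -117 and -98. The 3 genes with a match in a window, Sp5, Lef1 and Dkk1, differed by -0.60, -0.71 and -0.90 between the populations. The 6 searched genes without one ranged from -1.70 for Frzb to 0.11 for Sfrp5. The values of the 3 lay within that range. A match is a run of letters and not a measured binding site, and its absence says only that these letters are not in this window.

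The rest of the pathway was described with 5 lists of Wnt genes, in which no gene passed an adjusted p of 0.05 in limma. Of 19 Wnt ligands, 10 had positive arrays below negative arrays and 1 above, and 4 were lower at an unadjusted p under 0.05 in limma, with a median difference of -0.21. Only 8 of the 19 had a mean of 6 log2 units or more. Wnt6, Wnt8b, Wnt9a, Wnt9b and Wnt10b, counted among the 10, were dimmer than that, and Wnt9a was also among the 4. Over all genes the shares with separate arrays were 17.0% in the lower and 22.4% in the higher direction. The named ligands were Wnt5b, at -1.29 (SE 0.18), Wnt4, at -0.88 (SE 0.26), Wnt5a, at -0.78 (SE 0.12), Wnt2, at -0.71 (SE 0.30), and Wnt3, at -0.61 (SE 0.28). Wnt5b and Wnt3 were each read on a probe set with probes that other transcripts can share. The 5 ligands had the smallest p among those that reached 6 log2 units in the brighter population, the rule for naming genes in each list. That rule can pass a gene on the population where it is higher alone, and Wnt5b was dim in the positive cells, at 5.99, so its size is uncertain. The adjusted p-values of Wnt5b, Wnt4 and Wnt5a were 0.0955, 0.310 and 0.112. The differences of 3 of these ligands depended on single arrays. When 1 array was left out, Wnt4 ran from -1.18 to -0.58, Wnt2 from -1.04 to -0.38 and Wnt3 from -0.93 to -0.29.

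Of 25 receptors, agonists and secretion factors, 11 had arrays apart in the lower and 7 in the higher direction, with a median of -0.06. Over all genes these shares were 17.0% and 22.4%. At an unadjusted p under 0.05 in limma, 7 were lower and 4 higher, against 844 and 1287 of the 18193 genes. Those 4 were named after their values were seen. They were Fzd10 at 0.45 (SE 0.12), Rspo3 at 0.42 (SE 0.15), Fzd5 at 0.29 (SE 0.11) and Lrp5 at 0.27 (SE 0.09). Lrp5 was dim, at 5.73 in the positive and 5.46 in the negative cells. The Frizzled receptors Fzd7, Fzd1 and Fzd2 differed by -0.92 (SE 0.18), -0.79 (SE 0.11) and -0.53 (SE 0.11), the receptor tyrosine kinase Ror1 by -1.24 (SE 0.22), and Wls, which carries Wnt ligands to the cell surface, by -0.51 (SE 0.09). As means over all probe sets of a gene, the differences were smaller for Fzd7, at -0.52, Fzd1, at -0.43, and Ror1, at -0.33, and Ror1 was dim in the positive cells, at 5.76. Of the 18 other secreted or membrane antagonists measured, 6 were apart in the lower and 2 in the higher direction, with a median of -0.06. The shares over all genes were again 17.0% and 22.4%. Shisa2 and Shisa3, which hold back Frizzled receptors, differed by -0.66 (SE 0.09) and -0.79 (SE 0.28), and Znrf3, a ubiquitin ligase that removes Frizzled receptors and is a feedback target too, by -0.33 (SE 0.09). Cer1, a secreted antagonist of Nodal, BMP and Wnt, differed by -0.59 (SE 0.25). Shisa3 and Cer1 were dim in the positive cells, at 5.28 and 5.81, and when 1 array was left out they ran from -1.12 to -0.46 and from -0.90 to -0.29. The mean over its probe sets gave -0.20 for Znrf3. Sost, an antagonist that binds Lrp5 and Lrp6 like Dkk1, went the other way, with 6.98 and 5.79 on the positive arrays, against 5.55 and 4.72 on the negative arrays, a difference of 1.25 (SE 0.48, adjusted p = 0.429). It was dim in the negative cells, ran from 0.66 to 1.85 when 1 array was left out and was 0.64 as a mean over its probe sets.

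The cytoplasmic and nuclear transducers stood near 0. Of 28 measured genes, 9 had arrays apart in the lower and 2 in the higher direction, against 17.0% and 22.4% of all genes. The median of -0.02 turned to 0.02 with arrays centred on their medians. The corepressor Tle3 differed by -0.53 (SE 0.10), Dvl2, a Dishevelled, by -0.21 (SE 0.10), Ctnnbip1, an inhibitor of beta-catenin, by -0.31 (SE 0.16), and the coactivator Bcl9 by -0.22 (SE 0.12). When 1 array was left out, Ctnnbip1 ran from -0.47 to -0.14 and Bcl9 from -0.34 to -0.09, and Bcl9 was -0.41 as a mean over its probe sets. Dact2, the paralogue of Dact1, had 7.63 and 7.38 on the positive arrays, against 7.04 and 6.60 on the negative arrays. The difference was 0.68 (SE 0.18, adjusted p = 0.266), but 0.22 as a mean over its probe sets, while Dact1, with 1 probe set, differed by -1.51.

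Of 22 other genes known as Wnt targets, 11 had arrays apart in the lower and 5 in the higher direction, with a median of -0.22. Over all genes these shares were 17.0% and 22.4%, so the count in the higher direction was near the share of all genes. The Notch ligands Dll1, at -1.89 (SE 0.19), and Jag1, at -0.75 (SE 0.13), the mesoderm transcription factors Mesp1, at -1.64 (SE 0.11), and Tbx6, at -1.62 (SE 0.20), and Tnfrsf19, a receptor of the TNF family, at -0.89 (SE 0.17), were named by the same rule. Tbx6 was dim in the positive cells, at 4.51, so its size is uncertain, and Jag1 was -0.47 as a mean over its probe sets. Of the targets in this list, Myc, chosen after its value was seen, was higher, by 0.42 (SE 0.10), with arrays apart. The genes Rspo3, Lgr5 and Notum stand in 2 of the Wnt lists. Of the targets, Mesp1, Fgf8 and Mixl1 are also among the primitive streak markers below. Likewise, Tbx6, Msgn1 and Dll1 are also among the paraxial markers, so the target and marker readings are not separate.

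**Figure D4:**
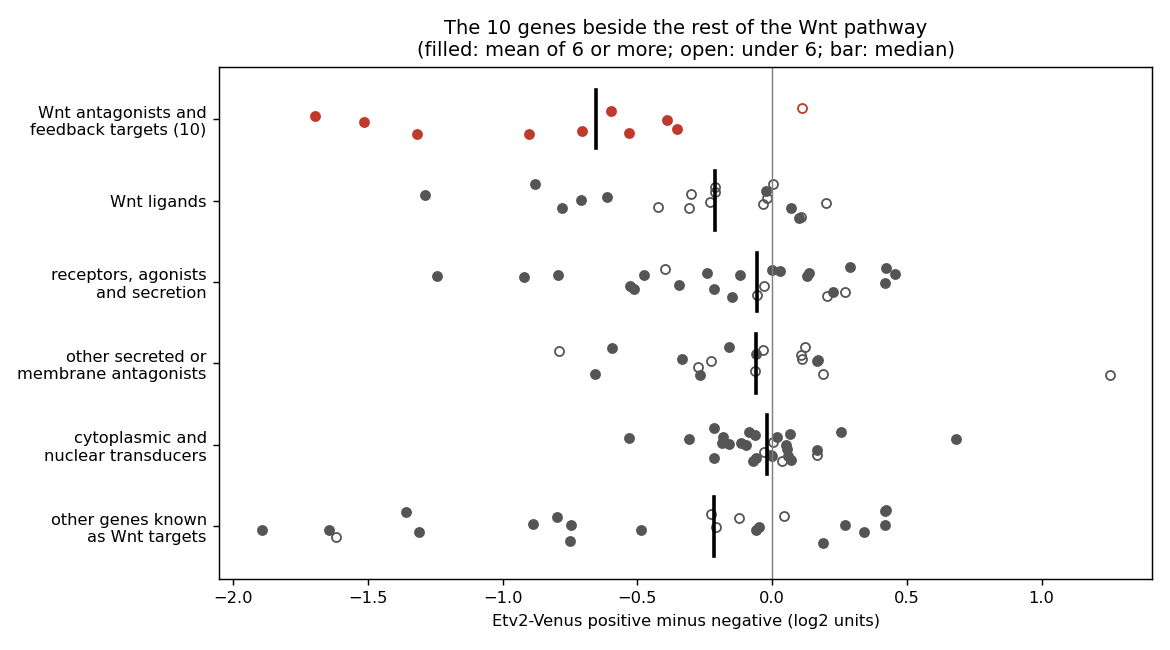
Difference in log2 units, Etv2-Venus positive minus negative (horizontal axis), for the 10 genes (red) and the 5 other lists of Wnt genes (grey); each circle is a gene, filled where the mean is 6 log2 units or more, and bars are medians. The median of the 10 genes lies at -0.65 and those of the other lists between -0.22 and -0.02.

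The genes whose profiles over the 4 arrays lay closest to that of Frzb, by Euclidean distance of gene-centred log2 values among genes with a mean of at least 6, were Dll3, a Notch ligand of presomitic mesoderm, at a distance of 0.21, Lrig3, a transmembrane protein, at 0.32, the integrin subunit Itga8 at 0.36, Mesp1 at 0.36 and the sarcomeric actin Actc1 at 0.38. Their differences ran from -1.83 to -1.33, so each had a difference close to that of Frzb, and 4 arrays give little detail beyond it.

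Markers of several cell types differed between the same arrays, given here as sums of linear signal over each list. Over all genes, 17.0% were apart in the lower and 22.4% in the higher direction, and no marker count was tested against these shares. The 8 primitive streak and nascent mesoderm markers summed to between 5558 and 7410 on the positive arrays, against 11404 to 16668 on the negative arrays, and all 8 had negative differences, 6 with arrays apart. The 9 paraxial and presomitic markers summed to between 1335 and 1409 on the positive arrays, against 3599 to 4135 on the negative arrays, with 7 of 9 lower and apart. Only 5 of the 9 had a mean of 6 log2 units or more. Msgn1, among the 7, was dim in both populations and differed by only -0.12. The 10 cardiac and lateral plate markers summed to between 2113 and 2278 on the positive arrays, against 3568 to 4066 on the negative arrays, again with 7 lower and apart. The 13 endothelial markers ran the other way, from 8903 to 9340 on the positive arrays, against 4327 to 4555 on the negative arrays, with 12 of 13 higher and apart. The 8 blood markers measured summed to between 924 and 1043 on the positive arrays, against 724 to 850 on the negative arrays. Of these 8, 4 were higher and apart and 3 lower and apart, but only 3 had a mean of 6 log2 units or more. The 3 lower ones, Ptprc, Klf1 and Hbb-bh1, were under 6 on every array. Itga2b, higher and apart, had 8.66 and 8.46 on the positive arrays, against 7.82 and 7.90 on the negative arrays. Pluripotent cell markers summed to between 1442 and 1755 on the positive arrays, against 2347 to 2361 on the negative arrays, with 2 of 7 lower and apart. The other 5 overlapped, among them Klf4, the brightest on every array and so the largest part of these sums. Klf4 had 9.79 and 10.45 log2 units on the positive arrays, against 10.42 and 10.79 on the negative arrays. For the 15 markers of OP9 stroma, fibroblasts and adipocyte precursors, the sums overlapped between the populations, and 4 of 15 markers were lower and apart. The sums on arrays 1 and 2 were 2571 and 1418 in the positive cells, against 3269 and 1920 in the negative cells. Array 1 was thus the higher in both populations, and within each array number the positive cells had the lower sum. RMA gives no value of 0, so no marker is absent by value. The part of these cell types in the differences of the 10 genes was not tested.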

How the data were processed

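Total RNA of the sorted cells was labelled with biotin by a 3' in vitro transcription kit and read on Affymetrix mouse arrays, 2 per population, per the labels' protocols. The authors deposited 1 log2 value per probe set and array, which the submitters' processing notes trace to RMA in R 2.8.0; the log base was judged from their range, 2.16 to 14.93. Array medians were 5.46 and 5.49 in the positive and 5.50 and 5.52 in the negative population, and the number of arrays limits the precision.

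Control probe sets and those with several symbols or none were left out, which kept 34945 of 45101 probe sets. Symbols were checked by Entrez identifier against the RefSeq genes of GRCm38.p6, and 0 changed. Each gene was read on its probe set of highest mean over the 4 arrays. The test was limma 3.58.1 (lmFit, then eBayes) under R 4.3.3, fitting the population alone with 2 residual degrees of freedom, two-sided, with Benjamini-Hochberg adjustment over 18193 genes and a threshold of 0.05. The step was tested on simulated data.

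The members and lists were chosen with earlier results of these data known. Named genes were the 10 members, Etv2, Kdr and Pdgfra, the 5 genes of smallest p in each Wnt list that reached a mean of 6 in the brighter population, and the 5 genes closest in profile to the member of largest difference. Some further genes, among them Fzd10, Rspo3, Fzd5, Lrp5 and Myc, were named outside this rule after their values were seen. Listed genes without a match among the 18193 were not used here. Alternatives were to test every probe set, to average a gene's probe sets, to keep only genes of mean 6 or more, to fit a mean-variance trend robustly, to repeat quantile normalization, to centre arrays on their medians, to block on the array number, and to leave out 1 array at a time. Figures were drawn with matplotlib 3.10.9.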

Additional observations from a re-analysis of the deposited data

How the results depend on the processing

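Of the 10 genes, 9 had a negative difference under each alternative except 2. Among genes with a mean of at least 6, Sfrp5 was not tested, and when array 1 of the positive cells was left out it differed by -0.0024 and all 10 were negative, the other arrays giving up to 0.224. Their median ran from -0.82 to -0.48 when an array was left out, and 5 to 8 of them then had an unadjusted p under 0.05 in the lower direction; the lone array is then assumed to vary like the other population, so these p-values say little about stability. The block on the array number left their median at -0.65, gave 9 of them an unadjusted p under 0.05 and called 0 genes; same-numbered arrays deviated together (correlation 0.543 across genes), array 1 being the higher for 9 of the 10 genes in the positive and 7 in the negative cells, but the labels do not say that the numbers pair the samples. Within arrays numbered 1 and numbered 2, 9 of 10 differences were negative in each, with a median of -0.65 in both.

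When the variance was modelled robustly by mean level, limma's calls were 81 higher and 31 lower, among them 1 of the 10, Dact1, and 2 of the other Wnt targets, Mesp1 and Dll1. Among genes with a mean of at least 6 it called 66 and 13, again with 1 of the 10, Dact1, and 1 other target, Mesp1. In these smaller designs no gene was called when an array was left out, and none of the remaining 4 Wnt lists had a call under any alternative. Keeping genes with a mean of at least 6, which removes dim genes, gave list medians of -0.66 for ligands, -0.13 for receptors, -0.27 for other antagonists, -0.061 for transducers and -0.49 for other targets. With arrays centred on their medians the median was -0.0175 for receptors, -0.022 for other antagonists and 0.022 for transducers. When an array was left out, medians ran from -0.27 to -0.11 for ligands, -0.162 to -0.0564 for receptors, -0.122 to -0.0134 for other antagonists, -0.0568 to 0.0060 for transducers and -0.277 to -0.0886 for other targets. The cause of these shifts was not tested. Probe sets under 6 log2 units, as for Sfrp5, limit what the arrays can show.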
